A study of Mus musculus with 12 samples.

Results

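This comparison set the mouse breast cancer line 4TO7 against the line 168FARN over every mouse microRNA (miRNA) with a signal well above background on each of the 3 arrays of at least 1 of these lines. That rule kept 197 of the 567 mouse miRNAs on the array. Both lines come from breast cancers that arose spontaneously in female Balb/C mice. The labels give both as wild type and non-metastatic, with no treatment. Total RNA was extracted with Trizol, and 100 ng was labelled per one-colour Agilent mouse miRNA array, on which brighter spots stand for more of a miRNA. The whole series holds 12 arrays, with 3 for each of 67NR, 168FARN, 4TO7 and 4T1. Here 3 arrays of 4TO7 were set against 3 of 168FARN. Whether the repeats were separate cultures is not given, so the p-values rest on a spread between samples that may be technical.

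The lines belong to a progression series of sister tumour lines. As background, 168FARN cells are known to reach the draining lymph nodes, whereas 4TO7 cells are known to reach the lung and persist there without forming nodules. The study's design text takes the lines to stand for successive steps of metastasis, from entry into the vessels to survival elsewhere and outgrowth, without saying which line stands for which step, and its title names dormancy. With 1 line for a step, whatever separates the steps and whatever separates these cell populations cannot be told apart.

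A miRNA is cut from a hairpin that is often transcribed together with neighbouring hairpins, so members of a cluster share a primary transcript. The hairpin yields a guide strand and a passenger strand, marked here by an asterisk. Bases 2 to 8 of the mature miRNA, the seed, pair with target messages, and miRNAs with the same seed form a family with largely shared targets. Members of a family can thus be read from different genes, and the sets below are grouped that way.

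The mature sequences below are those on which the results turn. They are shown 5′ to 3′ with the seed in capitals. The RefSeq table (GRCm38.p6) held a sequence for 126 of the 197 miRNAs. The miR-17 seed is carried by miRNAs of the miR-17-92 cluster, which were higher in 4TO7, and by miR-106b and miR-93 of a sister cluster, which were lower.
miR-17: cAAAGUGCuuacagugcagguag
miR-20a: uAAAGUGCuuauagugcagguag
miR-106a: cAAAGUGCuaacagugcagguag
miR-20b: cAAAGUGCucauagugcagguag
miR-106b: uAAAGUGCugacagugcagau
miR-93: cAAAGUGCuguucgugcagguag
miR-18a: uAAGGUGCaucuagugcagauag
miR-19b: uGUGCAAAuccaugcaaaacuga
miR-92a: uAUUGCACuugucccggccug
miR-25: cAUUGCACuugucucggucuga

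The next sets share a seed, but their members were not higher in the same line.
miR-34a: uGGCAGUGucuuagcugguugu
miR-34b-5p: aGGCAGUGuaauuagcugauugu
miR-449a: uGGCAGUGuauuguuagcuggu
miR-146a: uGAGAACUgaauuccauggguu
miR-146b: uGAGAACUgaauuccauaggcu
miR-497: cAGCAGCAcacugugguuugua
miR-195: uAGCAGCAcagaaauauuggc
miR-16: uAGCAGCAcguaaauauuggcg
miR-15b: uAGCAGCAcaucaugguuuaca
miR-99a: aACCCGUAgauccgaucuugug
miR-100: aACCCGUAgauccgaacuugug
miR-99b: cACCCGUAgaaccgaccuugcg
miR-125a-5p: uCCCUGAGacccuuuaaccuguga
miR-125b-5p: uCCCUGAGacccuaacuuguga
miR-148a: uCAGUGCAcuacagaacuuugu
miR-152: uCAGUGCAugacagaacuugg
miR-148b: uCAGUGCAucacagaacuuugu
let-7e: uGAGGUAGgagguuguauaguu
let-7i: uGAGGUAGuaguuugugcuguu
let-7a: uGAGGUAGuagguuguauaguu
let-7g: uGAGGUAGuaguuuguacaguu

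The last set holds miRNAs read in 1 of the lines only, miR-155 as the largest fall among those read in both, and miR-29a for its family. No seed is shared within it. The probes of miR-465c-3p, miR-741, miR-743a and miR-880 lie in a single X-linked cluster.
miR-465c-3p: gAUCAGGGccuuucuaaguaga
miR-743a: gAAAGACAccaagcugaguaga
miR-741: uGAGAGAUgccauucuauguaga
miR-880: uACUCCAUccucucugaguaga
miR-193b: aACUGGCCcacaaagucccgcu
miR-155: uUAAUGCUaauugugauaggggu
miR-29a: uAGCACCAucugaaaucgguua

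Levels are log2 of the scaled signal. Each array was divided by its own 75th percentile over 170 bright probes, which was 600 to 671 signal units for 4TO7 and 791 to 1213 for 168FARN. Between 148 and 160 miRNAs were read, that is well above background, per array of 4TO7, and between 175 and 191 per array of 168FARN. The lowest level read was -5.52 to -5.32 in 4TO7 and -6.51 to -5.64 in 168FARN, so dim miRNAs were easier to read in 168FARN, and the part of this in the counts of miRNAs read in a single line was not tested. Levels below a floor of -5.58 were set to it. The fit used all 12 arrays, with limma's moderated test and Benjamini-Hochberg adjustment over 225 miRNAs, and a difference passed at an adjusted p below 0.05. The 67NR arrays stood apart, at r = 0.54 to 0.552 with 168FARN and 0.612 to 0.62 with 4TO7 across tested miRNAs, which are not independent replicates. They enter here only through the scaling probes and the shared estimate of spread, and without them 161 of the 197 miRNAs passed, against 165 with them. On 4TO7 replicate 3 and 168FARN replicate 2, which lay in the first place of a row on their slide, miR-202-3p and miR-697 lay more than 1 above the other arrays of the line, as did miR-878-3p on the former.

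Of the 197 miRNAs, 77 were higher in 4TO7, 88 were lower and 32 did not pass (median difference -0.05). Over all 225 miRNAs tested, 79 were higher, 88 were lower and 58 did not pass, with a median of 0. As a background, 74.2% of tested miRNAs passed in either direction, 35.1% as higher and 39.1% as lower in 4TO7, and 72.9% had 4TO7 and 168FARN arrays that did not overlap, so a count for a family is to be read against these shares. The arrays of the lines did not overlap for 162 of the 197. Across lines the arrays correlated at 0.813 to 0.829 over the 197 miRNAs and within a line at 0.993 or more.

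The 197 fall into 3 groups by where they were read. There were 123 read on all arrays of both lines, of which 52 were higher in 4TO7, 46 were lower and 25 did not pass, with differences from -1.97 to 1.66 and a median of 0.08. Another 24 were read on all 4TO7 arrays but not on all 168FARN arrays, and all 24 passed as higher in 4TO7. The remaining 50 were read on all 168FARN arrays but not on all 4TO7 arrays, of which 42 were lower in 4TO7, 7 did not pass and 1, miR-702, was higher (0.60 ± 0.17; 0.18 and not passing without scaling). In these last groups the direction follows largely from how the groups were formed, so the counts describe them and support nothing. For a miRNA read on no array of a line only a lower bound can be given, written "at least". For it, the mean of the line that read the miRNA was set over, per array of the other line, the lowest level read there or the floored level of the miRNA itself, whichever was higher. A p-value beside such a fold is that of the floored difference and may be too small. Of 19 such bounds in favour of 4TO7, 16 were at least 2-fold and 4 at least 10-fold, and of 35 in favour of 168FARN, 27 and 7 were. In the fit, 32 members passed at 2-fold or more higher in 4TO7 (14.2% of tested miRNAs) and 41 at 2-fold or more lower (18.2%), unread levels being at the floor.

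The direction of small differences rests on the scaling. Without scaling the median of the 123 moved from 0.08 to -0.53 (0.21 with normexp), and 15 of them were higher and 77 lower in 4TO7 (the scaling values above were higher on every 168FARN array). With the normexp background correction 63 were higher and 28 lower (69.2% of calls higher against 53.1%). That correction added an offset of 50 signal units to each spot before scaling. The offset is a larger share of the level for dim miRNAs, and on the 4TO7 arrays, whose scaling values were lower. Its part in the values given under normexp here and below was not tested. Of the 165 calls, 27 turned direction without scaling, all of them differences of 0.58 or less that were higher in 4TO7, and 18 under normexp, all lower in 4TO7.

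**Figure D1:**
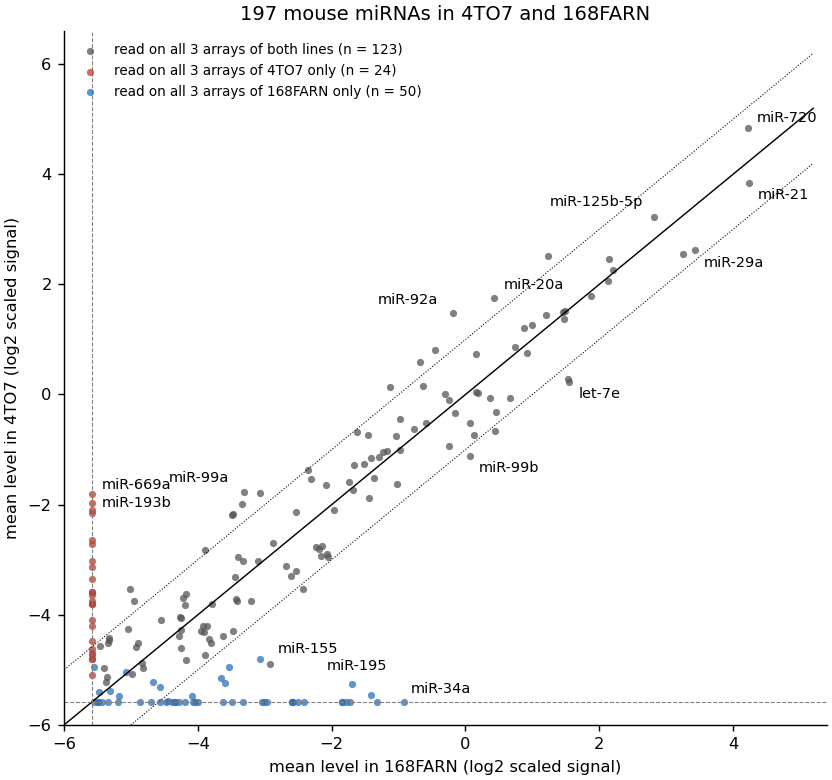
Mean level of 3 arrays (log2 scaled signal) of each of the 197 miRNAs in 168FARN (horizontal) and 4TO7 (vertical). The solid line marks equal levels, dotted lines a 2-fold difference and dashed lines the floor of -5.58. The 50 blue points along the bottom and the 24 red points at the left were read on all arrays of one line only, and miR-34a and miR-669a are the farthest from the diagonal among them.

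The guide strands of the miR-17-92 cluster were higher in 4TO7 in 6 of 6. Its 6 guide strands (chromosome 14, 115442915 to 115443718, plus strand, build mm9 as for every position given) are encoded in the host transcript Mir17hg. This transcript is a target of the factor Myc, and its miRNAs hold back inhibitors of growth and cell death. RefSeq lists 2 genomic copies each of miR-19b and miR-92a, so their signal cannot be assigned to this cluster alone. miR-92a, the last hairpin of the cluster, read 1.51, 1.41 and 1.52 on the 4TO7 arrays and -0.29, -0.13 and -0.13 on the 168FARN arrays. All 4TO7 arrays thus lay well above all 168FARN arrays, by 1.66 ± 0.08 (SE; 3.17-fold; adjusted p = 2.81e-09 by limma), the largest rise among miRNAs read in both lines. miR-20a read 1.76, 1.71 and 1.81 against 0.41, 0.52 and 0.35, and miR-19b read 2.55, 2.45 and 2.56 against 1.26, 1.3 and 1.15. Neither set of arrays overlapped, and both differed by nearly the same amount, 1.33 ± 0.04 and 1.28 ± 0.05. miR-17, miR-18a and miR-19a were 1.35, 1.27 and 1.25 higher, so that the 6 lay between 1.25 and 1.66 with a median of 1.31. Of 5 passenger strands of these hairpins on the array, 3 were members and higher, and miR-19a* and miR-92a* were read on none of the 6 arrays. miR-17* was 1.3 ± 0.04 higher, and miR-20a* and miR-18a*, each read on only 2 of the 168FARN arrays and at the floor on all 3, were 0.95 and 0.89 above the floor, and did not pass with the floor doubled.

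The paralogous clusters were not all higher. From the cluster on the X chromosome, miR-106a and miR-20b were 1.3 and 1.27 higher in 4TO7. They differ from miR-17 and miR-20a in 1 and 2 of 23 bases, so a probe may not tell them apart, and miR-18b and miR-363 of the same cluster were read on none of the 6 arrays. The cluster in an intron of Mcm7 (chromosome 5, 138606560 to 138607031, minus strand) had 2 lower guide strands of 3. miR-106b read -0.04, -0.12 and -0.02 in 4TO7 and 0.36, 0.46 and 0.31 in 168FARN, which is lower by 0.43 ± 0.04 (difference -0.43; adjusted p = 4.56e-06). miR-93 was -0.16 ± 0.03 and passed, and miR-25 at -0.11 ± 0.06 did not.

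The miR-183 cluster (chromosome 6, 30115962 to 30119729, minus strand), known from sensory organs and raised in many carcinomas, was higher in 4TO7 in 3 of 3 guide strands. miR-183 read -1.32, -1.47 and -1.32 against -2.39, -2.32 and -2.36, higher by 0.99 ± 0.10. miR-96 and miR-182 were 0.78 ± 0.05 and 0.73 ± 0.06 higher, and the passenger strand miR-183* was 1.47 ± 0.12 higher. No array of 168FARN reached the lowest of 4TO7 for any of the 4, although miR-96 (0.16) and miR-182 (0.11) no longer passed without scaling.

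**Figure D2:**
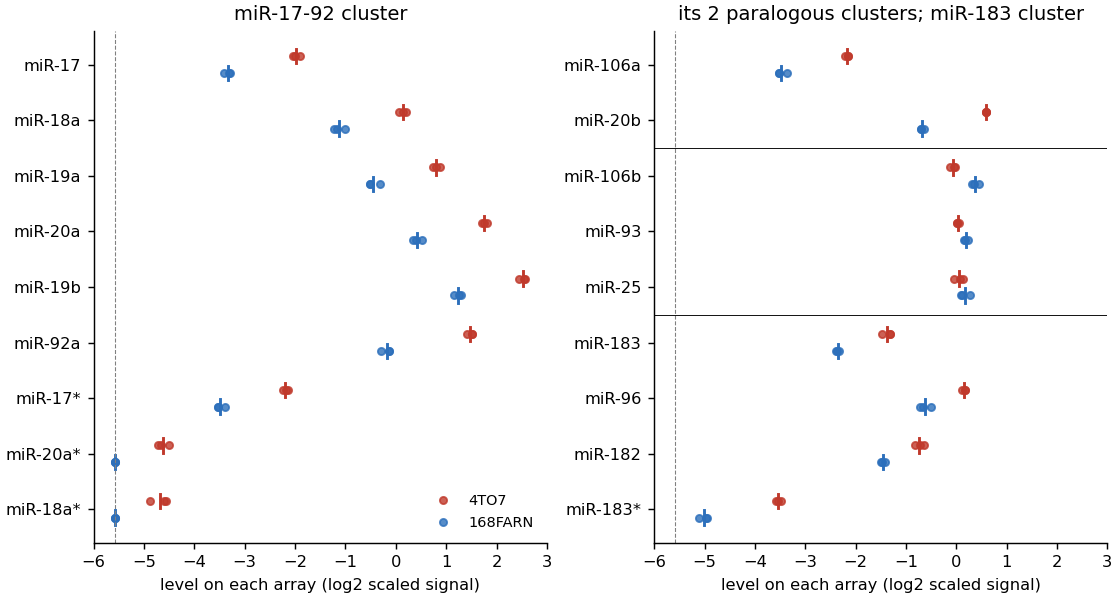
Level on each array (log2 scaled signal; points, 3 arrays per line; short bars, their mean; dashed line, the floor of -5.58) for the miR-17-92 cluster (left) and, from top to bottom on the right, the X-linked paralogs, the Mcm7 paralogs and the miR-183 cluster. Red 4TO7 points lie to the right of blue 168FARN points for every miRNA shown except miR-106b, miR-93 and miR-25.

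The rodent cluster within Sfmbt2, an imprinted gene, was read in 4TO7 and not in 168FARN. Of 25 miRNAs of this list on the array, 13 were read on all 4TO7 arrays, and those 13 were read on no 168FARN array, although the 168FARN arrays could read lower levels. All 13 were members through 4TO7, so their direction is no separate result. Along chromosome 2 the probe targets of 12 of them run from 10389446 to 10430967 on the plus strand, and that of miR-297a lies on chromosome 10. miR-669a read -1.82, -1.86 and -1.74 in 4TO7 and the floor in 168FARN, at least 13.6-fold higher. miR-466e-3p and miR-467a* were at least 12.2-fold and 11.2-fold higher, and miR-467b and miR-297a at least 5.85-fold and 5.46-fold. The weakest, miR-297c, was at least 1.71-fold higher and did not pass with the floor doubled. These miRNAs are repeats of near-identical sequence, so their probes may partly read each other. 4T1 read the same 13 on all of its arrays, with miR-669a at -2.64 ± 0.04 (SD), and 67NR read none.

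The X-linked cluster near Fmr1, known from the testis, had the opposite pattern. Of 26 listed miRNAs 18 were read on all 168FARN arrays and none on all arrays of 4TO7. Their probe targets lie on chromosome X from 64029935 to 64079192, minus strand. Since all 18 were members through 168FARN, that they all passed as lower in 4TO7 restates how they were chosen. miR-465c-3p read -1.35, -1.2 and -1.41 in 168FARN and the floor in 4TO7, at least 16.9-fold lower in 4TO7. RefSeq lists the same sequence for miR-465a-3p and miR-465b-3p, so the probe does not say which of these genes it read. miR-743a, miR-741 and miR-880 were at least 12.8-fold, 12.3-fold and 7.87-fold lower. miR-878-3p varied most, with the floor on 4TO7 replicates 1 and 2 but -3.25 on replicate 3, against -3.25, -2.80 and -3.16 in 168FARN (difference -1.73 ± 0.72; adjusted p = 0.049), and it no longer passed with slide as a term (-1.82) or under normexp (-0.48). The other strand, miR-878-5p, was at the floor on all 3 4TO7 arrays and at least 3.42-fold lower. 4T1 and 67NR also read none of the 18 on all arrays.

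The cluster in introns of Clcn5, also on the X chromosome (6814821 to 6825598, minus strand), was lower in 4TO7 in 4 of 6 miRNAs, with 2 not passing. Of the 6, 3 were members through 168FARN only, namely miR-362-5p and the 2 that did not pass. For these 3 the direction follows largely from how they were kept. miR-500 read -4.24, -4.30 and -4.37 against -3.49, -3.46 and -3.45, lower by 0.84 ± 0.04 (difference -0.84). miR-362-3p at -0.83, miR-532-5p at -0.65 and miR-362-5p (at least 1.94-fold) were the other lower ones, but under normexp these 3 turned to 0.02, 0.12 and 0.07, and miR-500 stood at -0.08 and did not pass. Only 2 of 56 miRNAs of the imprinted Dlk1-Dio3 cluster were members, miR-494 at 0.16 ± 0.05 (-0.46 without scaling) and miR-487b at -0.35 ± 0.13 (0.18 under normexp), and a second probe of miR-487b gave 0.19.

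**Figure D3:**
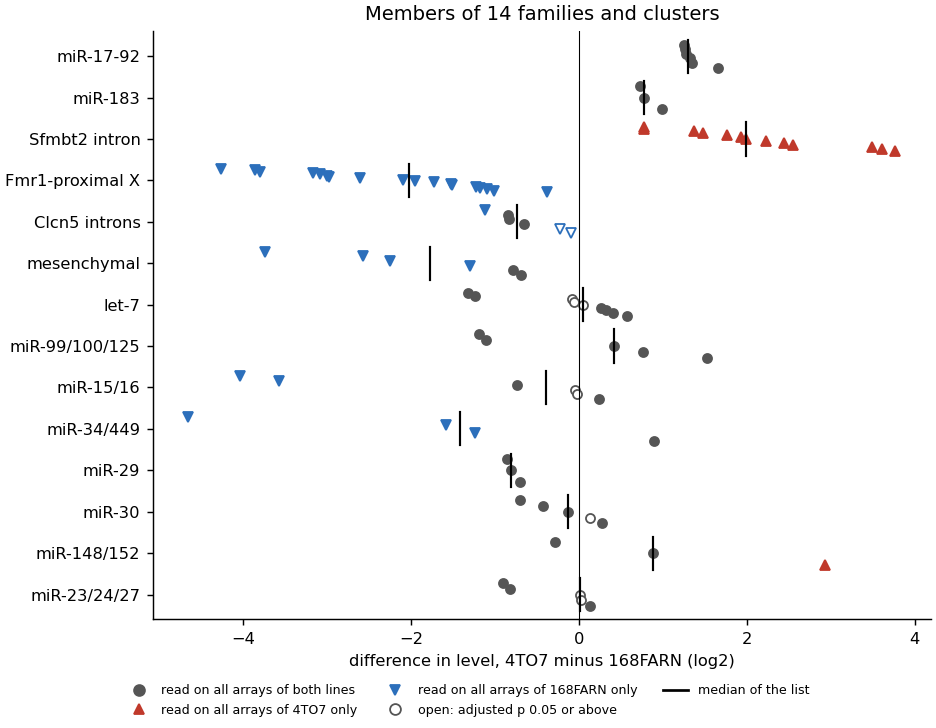
Difference in level, 4TO7 minus 168FARN (log2), for the members of 14 families and clusters, with the median of each as a black bar. Filled symbols passed at an adjusted p below 0.05 and triangles were read on all arrays of one line only, with the other line at or near the floor. miR-17-92, miR-183 and the Sfmbt2 cluster lie wholly to the right, and the Fmr1-proximal, mesenchymal and miR-29 sets wholly to the left.

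Some families that share a seed were split between the directions. Among the miRNAs with a sequence there were 21 seed groups of 2 or more, with 63 miRNAs. In 10 of the 21 groups at least 1 miRNA was higher and another lower, and in the other 11 those that passed moved one way. Without scaling 7 of the 21 groups were split in this way, and under normexp also 7. Some splits rest on miRNAs that were members through 1 line only, such as miR-146a and miR-146b. With only miRNAs read on all arrays of both lines tested, 6 of the 18 groups that still held a miRNA were split. Some of the 18, such as that of miR-449a, held only 1 such miRNA and could not be split. These counts are to be read against the 35.1% of tested miRNAs that were higher and the 39.1% that were lower.

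The miR-34 family, whose miR-34 genes are switched on by p53 and restrain the cell cycle, was lower in 4TO7 in 3 of 4 miRNAs, which are the miR-34 members. All 3 were members through 168FARN only, so their direction is no separate result. miR-34a (chromosome 4, 149442584 to 149442603, plus strand) read -0.94, -0.82 and -1.02 in 168FARN and the floor on every 4TO7 array, at least 22.2-fold lower and the largest bound in either direction. A second probe of miR-34a gave -3.65. miR-34b-5p and miR-34c, neighbours on chromosome 9, were at least 2.63-fold and 2.08-fold lower, the latter not passing under normexp (-0.16). miR-449a has the same seed but another gene, and went the other way at -4.41, -4.50 and -4.36 against -5.32, -5.17 and -5.51, higher by 0.90 ± 0.07. It differs from miR-34a in 7 of 22 bases, and without scaling its difference was 0.29 and did not pass. In 4T1 miR-34a was at -3.90, between the lines.

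The miR-15/16 family, which represses Bcl2 and cyclins, was split, with 3 lower, 1 higher and 2 not passing of 6. Of the lower ones, miR-497 and miR-195 were members through 168FARN only. miR-497 and miR-195, neighbours on chromosome 11 (70048234 to 70048584, plus strand), read -1.42, -1.35 and -1.50, and -1.69, -1.60 and -1.80, in 168FARN. In 4TO7 miR-497 was read on no array and was at least 15.2-fold lower. miR-195 was read on 2 of the 4TO7 arrays, at -5.22, -5.44 and -5.13, which is -3.57 ± 0.09 (11.8-fold lower). miR-16 was -0.73 ± 0.05, whereas miR-15a, its neighbour in Dleu2, was -0.02 ± 0.04 and did not pass. RefSeq lists 2 copies of miR-16, of which 1 lies beside miR-15b on chromosome 3, so the miR-16 signal cannot be assigned to Dleu2 alone. miR-15b, the single higher one, was 0.24 ± 0.06, but turned to -0.37 without scaling and did not pass with quantile normalization (0.07) or the percentile of all probes (0.19). miR-16 and miR-195 differ in 2 of 21 bases, so a probe for one may read the other.

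In the pair of miR-146 genes, which respond to NF-kB signalling and hold back its adaptors, each line had 1 of the 2 that was read on all of its arrays. miR-146a read -1.87, -1.78 and -1.88 in 168FARN and the floor in 4TO7, at least 11.7-fold lower. miR-146b read -3.79, -3.79 and -3.83 in 4TO7 and, though marked as read on 1 array, the floor on every 168FARN array, a difference of 1.77 ± 0.02 over the floor. The mature sequences differ in 2 of 22 bases. miR-155, processed from the Bic transcript and known from lymphocyte activation, read -4.77, -4.93 and -4.97 against -2.91, -2.83 and -3.03. It was lower by 1.97 ± 0.06 (difference -1.97; 3.91-fold; adjusted p = 4.21e-11), the largest fall among miRNAs read in both lines.

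**Figure D4:**
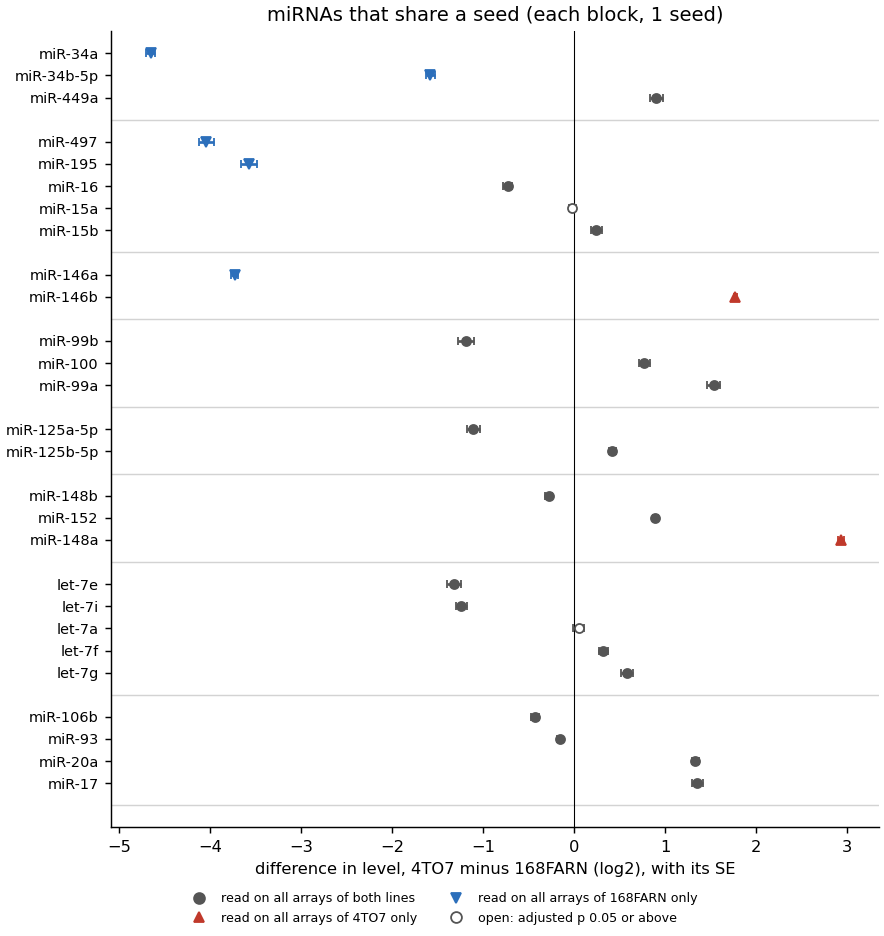
Difference in level, 4TO7 minus 168FARN (log2), with its SE, for miRNAs grouped by shared seed. Open symbols did not pass, and triangles were read on all arrays of one line only, so that their values are over the floor or near it. The blocks were picked from the 10 of 21 seed groups that were split, and some members of the larger groups are not drawn. Each block thus has points on both sides of 0 by choice. One is miR-146a at -3.73 with miR-146b at 1.77, each a member through a different line only.

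The clusters that pair let-7 with miR-99 or miR-100 and miR-125 showed the same division. let-7 restrains growth genes such as Ras and Hmga2, and miR-99, miR-100 and miR-125 genes lie beside let-7 genes in related clusters. In the cluster on chromosome 17 (17967164 to 17967840, plus strand), all 5 strands read were lower in 4TO7, from -1.65 to -1.11. let-7e read 0.30, 0.13 and 0.27 against 1.62, 1.64 and 1.39, and was -1.32 ± 0.08. miR-99b read -1.05, -1.11 and -1.17 against 0.08, 0.02 and 0.13, and was -1.19 ± 0.09. miR-125a-5p was -1.11 ± 0.07, with miR-99b* and miR-125a-3p at -1.41 and -1.65. The related genes went the other way. miR-99a (chromosome 16, 77599188 to 77599206) read -1.76, -1.93 and -1.66 against -3.32, -3.23 and -3.39, higher by 1.53 ± 0.07. miR-100 was 0.77 ± 0.06 higher and miR-125b-5p 0.42 ± 0.04 higher, though without scaling miR-100 stood at 0.15 and miR-125b-5p at -0.20, and neither passed. miR-99a and miR-100 differ in 1 of 22 bases, and miR-99a and miR-99b in 4.

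Of the 9 let-7 miRNAs, 2 were lower, 4 were higher and 3 did not pass, with a median of 0.05. let-7i, from its own gene on chromosome 10, read 0.32, 0.16 and 0.41 against 1.54, 1.62 and 1.44, and was -1.24 ± 0.06. let-7g, let-7f, let-7d and miR-98 were 0.58, 0.32, 0.27 and 0.41 higher, but without scaling they stood at -0.03, -0.30, -0.34 and -0.20 and did not pass. let-7a (0.05 ± 0.06), let-7b (-0.08) and let-7c (-0.06) did not pass. let-7a and let-7e differ in 1 of 22 bases, and only let-7e passed.

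The family of miR-148 and miR-152, which represses the DNA methyltransferase Dnmt1, was split as well. miR-148a (chromosome 6, 51219828 to 51219847, minus strand) read -2.70, -2.65 and -2.61 in 4TO7 and the floor in 168FARN, at least 7.60-fold higher. miR-152, in an intron of Copz2, was 0.89 ± 0.03 higher, but did not pass without scaling (0.27) or with the floor doubled (0.03). miR-148b was -0.28 ± 0.04, which turned to 0.13 under normexp. In the family of miR-130 and miR-301 miR-130b was read in 4TO7 and on no 168FARN array, at least 7.32-fold higher. miR-301a was 0.20 ± 0.05 higher, turning to -0.41 without scaling, and miR-130a at -0.09 ± 0.04 did not pass with slide as a term (-0.08) or under normexp (-0.12).

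Among miRNAs of the Hox gene clusters, miR-196b and miR-10a differed in opposite directions. Each was a member through 1 line only, so its direction follows largely from how it was kept. miR-10a, in the Hoxb cluster, was read on every 168FARN array and no 4TO7 array, at least 5.10-fold lower in 4TO7. miR-196b, in the Hoxa cluster, read -3.74, -3.78 and -3.76 in 4TO7, 1.82 ± 0.05 above the floor. It was at the floor on every 168FARN array, though marked as read on 1 of them. miR-193b, known as a repressor of the plasminogen activator Plau, read -2.14, -2.21 and -2.10 in 4TO7 and the floor in 168FARN, at least 10.8-fold higher, while its neighbour in sequence family miR-193 was 0.14 ± 0.05, turning to -0.48 without scaling. Both strands of miR-340, in an intron of Rnf130, were read in 4TO7 and on no 168FARN array, at least 4.00-fold and 2.15-fold higher. miR-342-3p, in an intron of Evl, was at least 7.0-fold lower in 4TO7.

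The miR-29 family, which represses collagens and other matrix genes, was lower in 4TO7 in 3 of 3. miR-29a read 2.65, 2.54 and 2.68 against 3.41, 3.51 and 3.36, and miR-29b 2.54, 2.51 and 2.60 against 3.20, 3.37 and 3.18. These bright probes differed by -0.81 ± 0.05 and -0.70 ± 0.06, miR-29c by -0.85 ± 0.05, and the passenger strand miR-29b* by -1.11 ± 0.06. miR-21, raised in most carcinomas, was -0.40 ± 0.06, and miR-720, a short RNA later reassigned to a tRNA fragment, was 0.63 ± 0.13 but 0.01 without scaling. miR-23a and miR-27a, neighbours on chromosome 8, were 0.03 ± 0.09 and 0.02 ± 0.05, and did not pass. Their sisters miR-23b and miR-27b on chromosome 13 read -2.97, -2.83 and -3.04 against -2.02, -2.06 and -2.05, and -2.81, -2.81 and -3.05 against -2.00, -2.14 and -2.06. Both were lower, by 0.90 ± 0.06 and 0.82 ± 0.08 (differences -0.90 and -0.82). miR-24, which lies in both clusters, was 0.13 ± 0.03 and turned to -0.49 without scaling. miR-27a and miR-27b differ in 1 of 21 bases.

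Of the remaining families, miR-221 and miR-222, which repress Cdkn1b, were -0.58 ± 0.09 and -0.61 ± 0.06. In the miR-30 family miR-30a was -0.70 ± 0.05, miR-30c -0.43 ± 0.03 and miR-30e -0.13 ± 0.03 (0.01 under normexp), while miR-30b was 0.28 ± 0.04 and turned without scaling. miR-30d at 0.13 ± 0.10 did not pass. miR-26b, miR-101a, miR-210, miR-107, miR-212 and miR-322 did not pass either. In the miR-181 family miR-181d was 0.87 ± 0.11 higher, but did not pass without scaling (0.37) or with the floor doubled (0.12), and miR-181b, read on no 4TO7 array, was at least 2.34-fold lower, but did not pass under normexp (-0.11). Of 11 nervous system miRNAs 4 were members, with 2 higher and 2 lower (median 0.09). miR-7a (0.93 ± 0.05) and miR-9 were the higher ones, and miR-128 (-0.35 ± 0.06) and miR-9* the lower ones. miR-7a did not pass without scaling (0.32), and miR-128 turned to 0.14 under normexp. miR-652, in an intron of Tmem164, was 1.28 ± 0.03 higher. miR-450a-5p was 0.84 ± 0.10 higher, but did not pass without scaling (0.22) or with the floor doubled (0.08), while miR-503, from the same X-linked cluster, was -0.27 ± 0.04 and turned to 0.06 under quantile normalization and to 0.20 under normexp. Among 9 members that the literature names as promoters of breast cancer metastasis, 3 were higher, 4 were lower and 2 did not pass (median 0.08). Of 14 named as suppressors 8 were members, and 6 were read on none of the 6 arrays. Among the 8, 4 were higher and 4 were lower (median -0.18). Only 2 of the 8 were read in both lines, while 3 were members through 4TO7 only and 3 through 168FARN only. For those members the direction follows largely from how they were kept. Higher among the suppressors were miR-31, miR-126-3p, miR-146b and miR-193b, and lower were miR-30a, miR-34a, miR-146a and miR-206. miR-31 read 1.19, 1.2 and 1.22 against 0.87, 0.92 and 0.84, higher by 0.33 ± 0.03, and its passenger miR-31* was 0.53 ± 0.06 higher, both turning without scaling (-0.29 and -0.09).

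Markers of cell types were set beside these differences. In bulk samples fewer cells of a type and less RNA per cell cannot be told apart. The miR-200 family, the defining epithelial miRNAs, was read on none of the 6 arrays in any of its 5 members, so neither line showed these markers. Of 4 other epithelial miRNAs, miR-203 and miR-205 were read on none of the 6 arrays. miR-31 and miR-31* were the 2 read in both lines, and were higher in 4TO7 with the scaling used. They are strands of 1 hairpin, so they are not separate results. The summed signal of the list was 300 to 307% of the scaling signal in 4TO7 and 227 to 241% in 168FARN. No other hairpin of the list was read. Of 8 mesenchymal and fibroblast miRNAs 6 were members and 6 of 6 were lower in 4TO7, of which 4 were members through 168FARN only. For these 4 the direction follows from how they were kept. The 2 read in both lines, miR-140 and miR-140*, are strands of 1 hairpin, so the 6 are not separate results. miR-199a-5p read -2.98, -2.95 and -3.10 in 168FARN and the floor in 4TO7, at least 5.24-fold lower, and the probe named miR-199b was at least 11.8-fold lower. That probe's target is placed at the miR-199a gene on chromosome 1, and RefSeq lists the same 3′ strand for miR-199a and miR-199b. miR-143 was at least 2.17-fold lower, and miR-140, from an intron of Wwp2, was -0.69 ± 0.04. The summed mesenchymal signal was 23.5 to 24.6% of the array's scaling signal in 4TO7 and 91.4 to 99.2% in 168FARN, with miR-145 and miR-214 unread. Of this list 4TO7 read only miR-140 and miR-140*, and the other 4 members were read on no 4TO7 array. Of 7 haematopoietic miRNAs only miR-142-3p was a member, read in 168FARN and on no 4TO7 array and at least 1.62-fold lower in 4TO7, though at -0.07 under normexp and 0 with the floor doubled it did not pass. The list summed to 2.29 to 3.29% in 4TO7 and 5.09 to 5.97% in 168FARN, and miR-223, miR-150 and miR-451 were read on none of the 6 arrays. Of 6 muscle miRNAs only miR-206 was a member, also read in 168FARN and not in 4TO7 (summed signal 0.276 to 0.919% and 3.25 to 4.15%), and not passing under normexp (-0.03) or with the floor doubled (0). Of 2 endothelial miRNAs only miR-126-3p was a member, read in 4TO7 and not in 168FARN and at 0 with the floor doubled (3.80 to 4.51% and 0.22 to 0.73%). No liver, pancreas or stem cell miRNA of the lists was a member. The part of other cells in any of the differences was not tested.

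Neighbours on a chromosome, many of them strands of 1 hairpin, had differences of one sign in most cases. With a gap of 10 kb or less, 121 members fell into 38 clusters, and in 34 of them all differences had one sign. Many of these clusters hold only the strands of 1 hairpin. Of 12 clusters with 3 or more members, 10 had one sign. The Sfmbt2 and Fmr1-proximal clusters are among the 10, and their members were kept through 1 line only, which sets the sign. In 3 clusters a higher and a lower call stood together, namely miR-24 with miR-23b and miR-27b, miR-450a-5p with miR-503, and miR-9 with miR-9*. Each miRNA was placed by the position given for its probe, so miR-16 was not counted beside miR-15b. Of 29 pairs of strands from a hairpin 27 had differences of one sign, and 22 passed in the same direction. Only 11 of these pairs had both strands read in both lines, and 9 of the 11 had one sign. In the other pairs at least 1 strand was a member through 1 line only, which largely sets its direction. The pair miR-9 and miR-9*, known from neurons, was the only one called in opposite directions. miR-9 read -3.73, -3.45 and -3.93 against -4.14, -4.26 and -4.29, higher by 0.53 ± 0.10, and miR-9* read -4.56, -4.31 and -4.45 against -3.85, -3.71 and -3.98, at -0.59 ± 0.08. This opposition was seen with the main scaling, but miR-9 turned to -0.09 without scaling and miR-9* to 0.05 under normexp.

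The metastatic line 4T1, a sister of these lines, was read for the same miRNAs. Of 95 called miRNAs read on all arrays of 4TO7, 168FARN and 4T1, the 4T1 mean lay nearer to 4TO7 for 64 and nearer to 168FARN for 31, and between the lines for 41. Of the 24 read fully only in 4TO7, 21 were read on all 4T1 arrays, and of the 50 read fully only in 168FARN, 17 were. miR-155 and miR-23b did not follow 4TO7. Their 4T1 levels were -2.19 and -0.93, above both lines. The 4T1 level of miR-20a (1.47) lay nearer 4TO7, and miR-148a was at the floor in 4T1 (-5.58), although marked as read on 2 arrays. As 4T1 has its own arrays, these are levels set side by side and no test was made of which line it resembled.

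**Figure D5:**
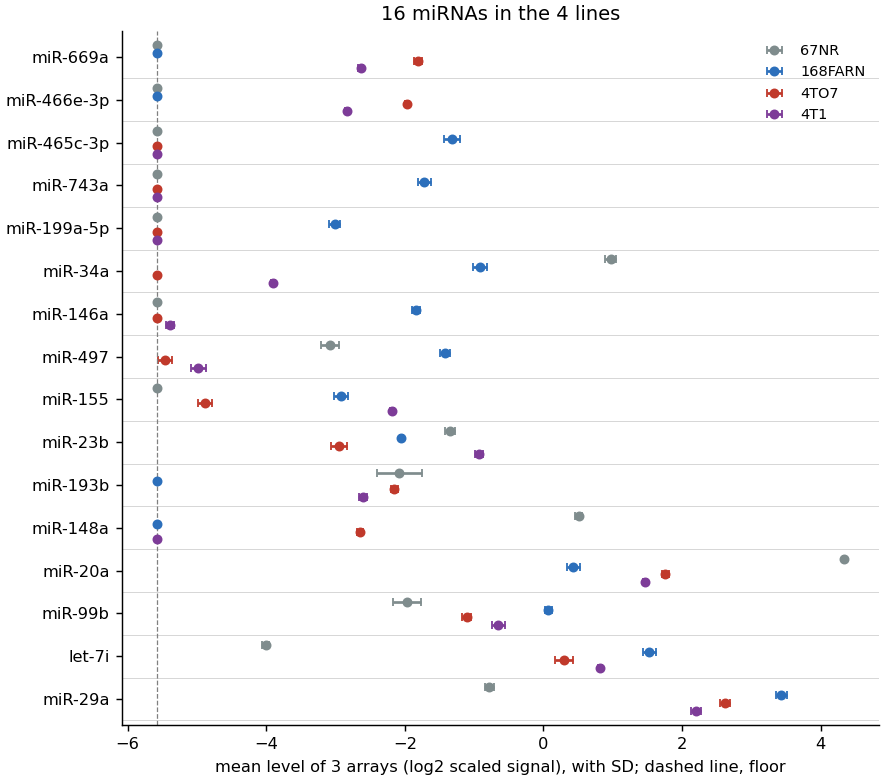
Mean level of 3 arrays (log2 scaled signal) with SD for 16 miRNAs in 67NR, 168FARN, 4TO7 and 4T1, with the floor of -5.58 as a dashed line. The Sfmbt2 miRNAs miR-669a and miR-466e-3p leave the floor in 4TO7 and 4T1, miR-465c-3p, miR-743a and miR-199a-5p leave it in 168FARN alone, and miR-155 is higher in 168FARN and 4T1 than in 4TO7.

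The slide and the position of the arrays were examined as batches. 168FARN replicate 1 was on the slide of the 67NR arrays, and the other 5 arrays were on the second slide. The first slide holds no 4TO7 array and gives no value of its own. With slide as a term 158 of the 197 passed, on the second slide alone 154 and on its first row alone 137, against 165. Among miRNAs read in both lines these fits called 92, 89 and 74, against 98. Leaving out either first-place array or fitting a term for that place called 162 to 168 of the 197. The difference in miR-92a was 1.61 on the second slide alone, against 1.66. Just outside the rule, 8 miRNAs were read on only 2 arrays of a line (miR-10b, miR-181a, miR-191*, miR-29a*, miR-30b*, miR-582-5p, miR-744 and miR-883b-5p), with means from -5.58 to -5.30 in either line. Just inside it, the dimmest members, such as miR-30c-2* at -5.49 and miR-532-3p at -5.49 in 168FARN, were at the floor in 4TO7.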

How the data were processed

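One-colour Agilent mouse miRNA arrays were read for 12 samples of 4 lines. Per the file headers, the deposited intensities came from Feature Extraction 10.2.1.3 as background-subtracted signals per spot, with probe targets placed on mm9 and no normalization between arrays. The deposited series value table held the same intensities (largest difference 0).

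Control spots and outlier spots were left out. A probe was read where over 0.5 of its spots were well above background. Signals were averaged per probe, divided by the array's 75th percentile over 170 probes read on all arrays, floored at 0.0209 (log2 -5.58) and taken as log2, and each miRNA was given by its brightest probe. limma 3.58.1 (R 4.3.3) fitted 4 lines on 12 arrays (8 residual degrees of freedom), two-sided, with Benjamini-Hochberg adjustment over 225 miRNAs read on all 3 arrays of a line. The fit was tested on simulated data.

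The members, lists and tests were chosen with earlier results of these data known. Named miRNAs were the 12 highest and 12 lowest differences read in both lines, the largest bounds in each direction, those of highest signal, those of smallest difference among the brightest, and members of the lists; others were named after their values were seen. Alternatives covered scaling, background, filter, floor, slide, place, pairing and left-out arrays. The terms for the place on the slide were added after seeing the data. The number of arrays limits the precision.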

Additional observations from a re-analysis of the deposited data

Results flagged for a closer look

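The viral miRNA mghv-miR-M1-2, which is no mouse miRNA and stands outside the comparison, was well above background on 4 of the 6 arrays, namely the 3 of 168FARN and replicate 1 of 4TO7. Its highest signal was 32 signal units, its median over the 6 arrays 16 and its lowest 10.7. The other viral probes, 10 viral miRNAs being on the array, were read on none of the 6.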

How the results depend on the processing

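Of the 165 calls, 82 kept call and direction under every alternative that tested them, and 108 under all but no scaling and normexp. Without scaling 15 miRNAs read in both lines were higher and 77 lower, and normexp left 28 lower. Testing only miRNAs read on all arrays of both lines called 97, since fewer were tested. Leaving out each array in turn called 158 to 163 members (92 to 96 read in both lines, 49 to 54 higher and 42 to 46 lower). The replicate block called 161. Same-numbered arrays correlated at 0.496, -0.648 and -0.484 in their deviations, so the numbers were not taken to pair the samples. miR-27a, near 0 (0.02) and not passing in the main setting, turned to -0.6 without scaling, -0.03 with the percentile of all probes, -0.02 with that of probes read on the 6 arrays, with quantile normalization and on the first row of the second slide, and -0.01 under normexp. It was 0 with slide as a term and on the second slide alone, and leaving out each array gave -0.01 to 0.08. miR-23a (0.03, not passing) turned to -0.59 without scaling, -0.15 with quantile normalization, -0.02 and -0.01 with those percentiles and 0 under normexp, and leaving out each array gave -0.04 to 0.12. let-7a turned to -0.56 without scaling and -0.07 with quantile normalization, miR-125b-5p to -0.2 and let-7f to -0.3 without scaling, and miR-362-3p to 0.02 under normexp. Apart from those that follow from how an alternative is built, the cause was not tested. Signal over background limits what can be said of miRNAs read in a single line.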
